A study of Mus musculus with 15 samples.

Results

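The immunoglobulin heavy chain variable (Ighv) segments were taken as every gene of the deposited expression table whose symbol begins with Ighv and a number, 178 of 31298 genes. RNA was sequenced from bone marrow hematopoietic stem cells (HSCs) of hCD34-tTA x TetO-H2BGFP mice, in which a histone H2B fused to green fluorescent protein is driven by a transactivator under human CD34 regulatory sequence. All groups, Total included, carried both transgenes and had received doxycycline, which stops synthesis of the label so that it is diluted at each division. HSCs were sorted as lineage-depleted Sca1+ c-Kit+ CD48- Flk2- CD150+ cells and divided by remaining GFP into the bins GFP1, GFP2, GFP3 and GFP4, with the undivided sort kept as Total. There were 15 libraries, 3 in each of 5 groups. Library I of every group is labelled 5 months of age and 12 weeks of doxycycline, library II 5.5 months and 14 weeks, and library III 6.5 months and 16 weeks, so replicate number, age and length of chase cannot be told apart. It is not labelled whether GFP1 or GFP4 kept most GFP, which antibodies made up the lineage cocktail, whether animals were pooled for a library, or whether same-numbered libraries shared animals. The p-values therefore measure the spread between these libraries, which includes differences of age and chase length. How much of it lies between animals or is technical is not known.

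A heavy chain variable exon is assembled in developing B cells by V(D)J recombination, in which the RAG recombinase joins a V segment to a D and a J segment. The V segment supplies most of the antigen-binding domain, the join supplies its most variable loop, and a constant gene downstream sets the antibody class. A B cell clone normally uses a single heavy chain rearrangement together with a single light chain rearrangement. Many clones share a V segment, so V segment transcripts show which segments a sample uses and do not identify clones. HSCs lie upstream of this step, and plasma cells, which secrete antibody, carry by far the most immunoglobulin mRNA per cell.

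Of the 178 segments, the GENCODE annotation of GRCm38 gave 113 as functional V genes and 63 as pseudogenes, and the other 2 (Ighv5-8 and Ighv1-13) each matched 2 annotated entries. The 176 with a single entry lay on the minus strand of chromosome 12 between positions 113572927 and 116010093. They fell into 16 families by the first number of the symbol. Family 1 was the largest, with 91 members, followed by family 5 with 20, family 8 with 16 and family 2 with 11. The germline sequences of the 4 segments that stood alone in a GFP3 or GFP4 library are shown first, because the assignment of a read to a segment rests on the bases at which members of 1 family differ. They are the last 300 bases of the V exon, 5′ to 3′ on the coding strand, from the GENCODE transcripts of GRCm38: Ighv1-81 at chr12:115920279-115920578, Ighv1-39 at chr12:114914599-114914898, Ighv1-19 at chr12:114708648-114708947 and Ighv1-9 at chr12:114583569-114583868, all on the minus strand. Capitals mark the codon of the conserved second cysteine in Ighv1-81 and, in the other 3, the bases that differ from Ighv1-81.
Ighv1-81: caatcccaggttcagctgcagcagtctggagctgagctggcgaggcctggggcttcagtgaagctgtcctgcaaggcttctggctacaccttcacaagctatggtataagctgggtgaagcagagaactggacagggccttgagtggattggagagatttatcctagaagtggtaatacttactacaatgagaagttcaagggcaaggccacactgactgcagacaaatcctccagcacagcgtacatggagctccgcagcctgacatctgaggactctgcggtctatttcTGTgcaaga
Ighv1-39: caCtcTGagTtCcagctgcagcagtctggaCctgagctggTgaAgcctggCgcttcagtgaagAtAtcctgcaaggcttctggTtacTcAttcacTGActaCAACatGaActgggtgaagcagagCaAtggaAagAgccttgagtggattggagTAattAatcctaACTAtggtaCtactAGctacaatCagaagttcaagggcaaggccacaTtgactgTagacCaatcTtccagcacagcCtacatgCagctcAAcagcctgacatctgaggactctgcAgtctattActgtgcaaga
Ighv1-19: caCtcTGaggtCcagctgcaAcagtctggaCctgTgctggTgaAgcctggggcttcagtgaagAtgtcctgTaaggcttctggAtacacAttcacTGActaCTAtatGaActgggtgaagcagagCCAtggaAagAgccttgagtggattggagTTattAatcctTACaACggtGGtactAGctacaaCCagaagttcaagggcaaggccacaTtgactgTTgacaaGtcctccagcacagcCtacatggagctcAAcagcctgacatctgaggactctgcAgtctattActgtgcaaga
Ighv1-9: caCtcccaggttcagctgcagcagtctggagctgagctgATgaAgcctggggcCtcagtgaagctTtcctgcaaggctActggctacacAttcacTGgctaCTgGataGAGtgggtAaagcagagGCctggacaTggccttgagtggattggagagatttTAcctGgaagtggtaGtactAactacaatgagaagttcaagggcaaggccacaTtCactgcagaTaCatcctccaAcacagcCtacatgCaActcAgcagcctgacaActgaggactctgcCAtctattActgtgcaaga
Ighv1-39 differed from Ighv1-81 at 48 of the 300 bases, Ighv1-19 at 49 and Ighv1-9 at 38. The nearest relative in the locus was 92.8% identical for Ighv1-81 and for Ighv1-39, 96.1% for Ighv1-19 and 90.2% for Ighv1-9.

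Ighv8-8 and Ighv3-6, which had the largest rises in GFP1 against GFP4, came from other families, while Ighv1-34 and Ighv1-81, next in size, are of family 1. The last 120 bases of the V exons of Ighv3-6 and Ighv8-8, with the same cysteine codon in capitals, show how far families diverge. Ighv3-6 lies at chr12:114288152-114288271 and Ighv8-8 at chr12:115294062-115294181, both on the minus strand of GRCm38.
Ighv3-6: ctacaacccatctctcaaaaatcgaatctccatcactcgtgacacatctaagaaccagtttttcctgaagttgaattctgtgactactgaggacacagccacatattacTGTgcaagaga
Ighv8-8: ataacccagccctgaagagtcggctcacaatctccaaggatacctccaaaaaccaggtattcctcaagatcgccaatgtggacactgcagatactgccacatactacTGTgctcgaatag
The V exons of the 6 segments shown are between 305 and 312 bases long, so their levels are compared at nearly equal length. Over whole V exons, Ighv3-6 was 57.0% identical to Ighv1-81 and Ighv8-8 was 55.8% identical to it. The pattern TANTNNTGT, which holds TGT behind a codon that begins with T and a codon that begins with TA and was searched on the coding strand in the last 30 bases, was present in 107 of 113 functional segments and in 38 of 63 pseudogenes. Members of 1 family can be much closer than this: across the 176 segments the median identity to the nearest other segment was 94.4%, 72 segments had a neighbour at 95% or more, and Ighv1-62-2 and Ighv1-71 were identical over the V exon. Levels of single segments are therefore estimates that the read assignment could have split between close relatives.

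Values were deposited as log2 levels, quantile normalized so that every library has the same distribution, running up to 19.12. The unit before the logarithm is not given in the sources used here and the read depth is unknown, so no counting error can be given, and 0.14 on this scale is the lowest value of most libraries. Of 10 HSC markers none was at the lowest value in all libraries of a group. Their summed linear level was between 0.288% and 0.299% of the library in GFP1, between 0.422% and 0.613% over GFP2, GFP3 and GFP4, and between 0.298% and 0.417% in Total, and 8 of the 10 were lower in GFP1 than in GFP4, as given at the end.

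Ighv segments were abundant in GFP1 and Total and close to the lowest values in GFP2, GFP3 and GFP4. A log2 level above 8 was reached by 53, 60 and 62 segments in GFP1 libraries I, II and III, by 0, 0 and 0 in GFP2, by 1, 1 and 0 in GFP3, by 0, 1 and 1 in GFP4, and by 30, 38 and 36 in Total. The GFP1 and Total libraries did not overlap in this number, which averaged 58.3 ± 4.73 in GFP1 and 34.7 ± 4.16 in Total (SD, n = 3 each). An exact permutation of 3 against 3 libraries cannot reach a p below 0.10, so none is given. In sum, the segments made up 0.505%, 0.447% and 0.505% of all linear values in GFP1, and 0.336%, 0.552% and 0.426% in Total, where a linear value is 2 raised to the deposited value, minus 1. The summed share thus overlapped between GFP1 and Total although the number of segments did not. These are shares of quantile-normalized values, in which every library has the same total, and not shares of RNA. The share was between 0.000691% and 0.00158% in the GFP2 libraries, between 0.00118% and 0.00538% in GFP3 and between 0.00083% and 0.00837% in GFP4. Fewer antibody-producing cells and less antibody RNA per cell cannot be told apart in these bulk samples. Kappa light chain variable (Igkv) segments, the partners of the heavy chain, ran in parallel: 60, 71 and 63 of 157 lay above 8 in GFP1, 0 in each GFP2 library, 1, 1 and 0 in GFP3, 0, 1 and 2 in GFP4, and 28, 43 and 29 in Total. No variable segment of the T cell receptor alpha or beta chain, which are rearranged by the same enzymes in T cells, lay above 8 in any library.

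**Figure D1:**
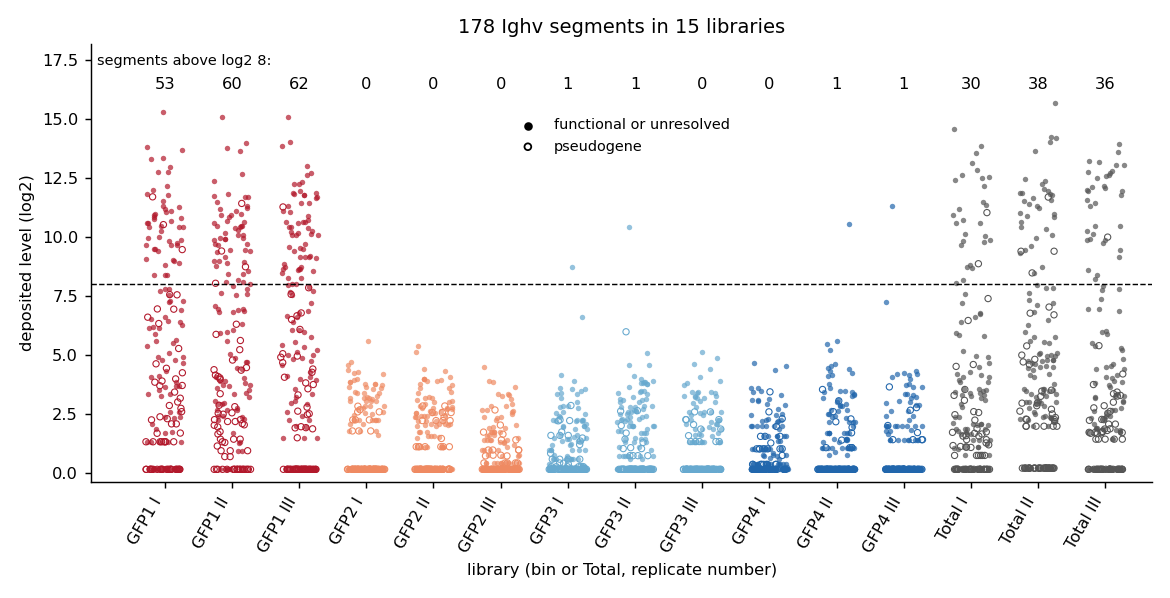
Deposited log2 levels of the 178 Ighv segments (vertical axis) in each of 15 libraries (horizontal axis), 1 point per segment, with pseudogenes as open circles, the threshold of 8 as a dashed line and the number of segments above it written at the top. GFP1 libraries hold 53 to 62 segments above the line and Total libraries 30 to 38, while the 9 libraries of GFP2, GFP3 and GFP4 hold at most 1.

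The same few segments led most GFP1 and Total libraries. Ighv1-81, a functional family 1 segment near the far end of the locus, had log2 levels of 15.33, 15.12 and 15.12 in GFP1 libraries I, II and III and of 14.57, 15.69 and 12.77 in Total. It was the highest segment in all 3 GFP1 libraries and in Total I and II. Total III was led by Ighv1-9 at 13.96, with Ighv3-6 next at 13.61. Ighv3-6 had 12.76, 13.98 and 13.00 in GFP1 and 13.13, 14.21 and 13.61 in Total, so it was high in all 6. Others were high in some libraries only. Ighv1-53 reached 13.78 in GFP1 II and 14.23 in Total II, against 4.84 in Total III. Ighv1-61 reached 13.06 in Total III, against 3.57 and 2.39 in Total I and II. The highest segment held 22.3%, 21.9% and 19.4% of the summed linear Ighv level in GFP1, and 19.8%, 26.2% and 10.2% in Total. The effective number of segments, which is the inverse of the summed squared shares and equals the number of segments if all were equally abundant, was 13.1, 12.7 and 15.5 in GFP1 and 11.5, 9.64 and 21.0 in Total. GFP1 and Total therefore overlapped in how evenly their Ighv level was spread, and differed in how many segments passed the threshold.

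In GFP1 against GFP4, 97 of the 155 segments tested were higher and 0 were lower, against 9.27% of all 27994 genes tested called higher in that comparison and 10.3% called lower (limma, Benjamini-Hochberg adjusted p below 0.05 over all genes). Only 96 of those 155 would have passed the filter on low values from the GFP2, GFP3 and GFP4 libraries alone, so many entered the test through the groups where they are high. Another 23 segments, 19 of them pseudogenes, were not tested. In 110 segments all 3 GFP1 libraries lay above all 3 GFP4 libraries, which held for 15.1% of all genes. The median log2 difference, GFP1 minus GFP4, was 4.69 over the tested segments and -0.07 over all genes tested.

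Ighv8-8, a family 8 segment, had log2 levels of 13.36, 13.66 and 14.05 in GFP1 and of 0.35, 0.14 and 0.14 in GFP4. The groups were far apart, with a log2 difference of 13.48 ± 0.78 (SE, limma adjusted p = 3.69e-08). Ighv3-6 had 12.76, 13.98 and 13.00 in GFP1 and 0.14, 1.69 and 0.14 in GFP4, a log2 difference of 12.59 ± 0.47 (adjusted p = 2.64e-12). Ighv1-34, of family 1, had 12.77, 12.69 and 12.25 in GFP1 and 0.14 in each GFP4 library, a log2 difference of 12.43 ± 1.20 (adjusted p = 1.86e-05). All 3 segments were near the lowest value in every GFP4 library, where a log2 difference on this scale depends on that lowest value and gives no fold. Ighv1-81 was less even, with 4.54, 5.59 and 0.14 in GFP4 and a log2 difference of 11.77 ± 1.80 (adjusted p = 7.63e-04). The next 6 by size were Ighv8-12, Ighv1-80, Ighv1-9, Ighv5-6, Ighv1-50 and Ighv1-54, with log2 differences between 10.48 and 11.67 and adjusted p between 4.38e-06 and 0.00502. All 10 kept their call under each of the 13 alternatives run for this comparison. The nearest bin gave a like count: in GFP1 against GFP2, 87 of 155 segments were higher and 0 lower, against 3.06% and 4.1% of all genes, with a median log2 difference of 4.63. These comparisons share the GFP1 libraries.

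**Figure D2:**
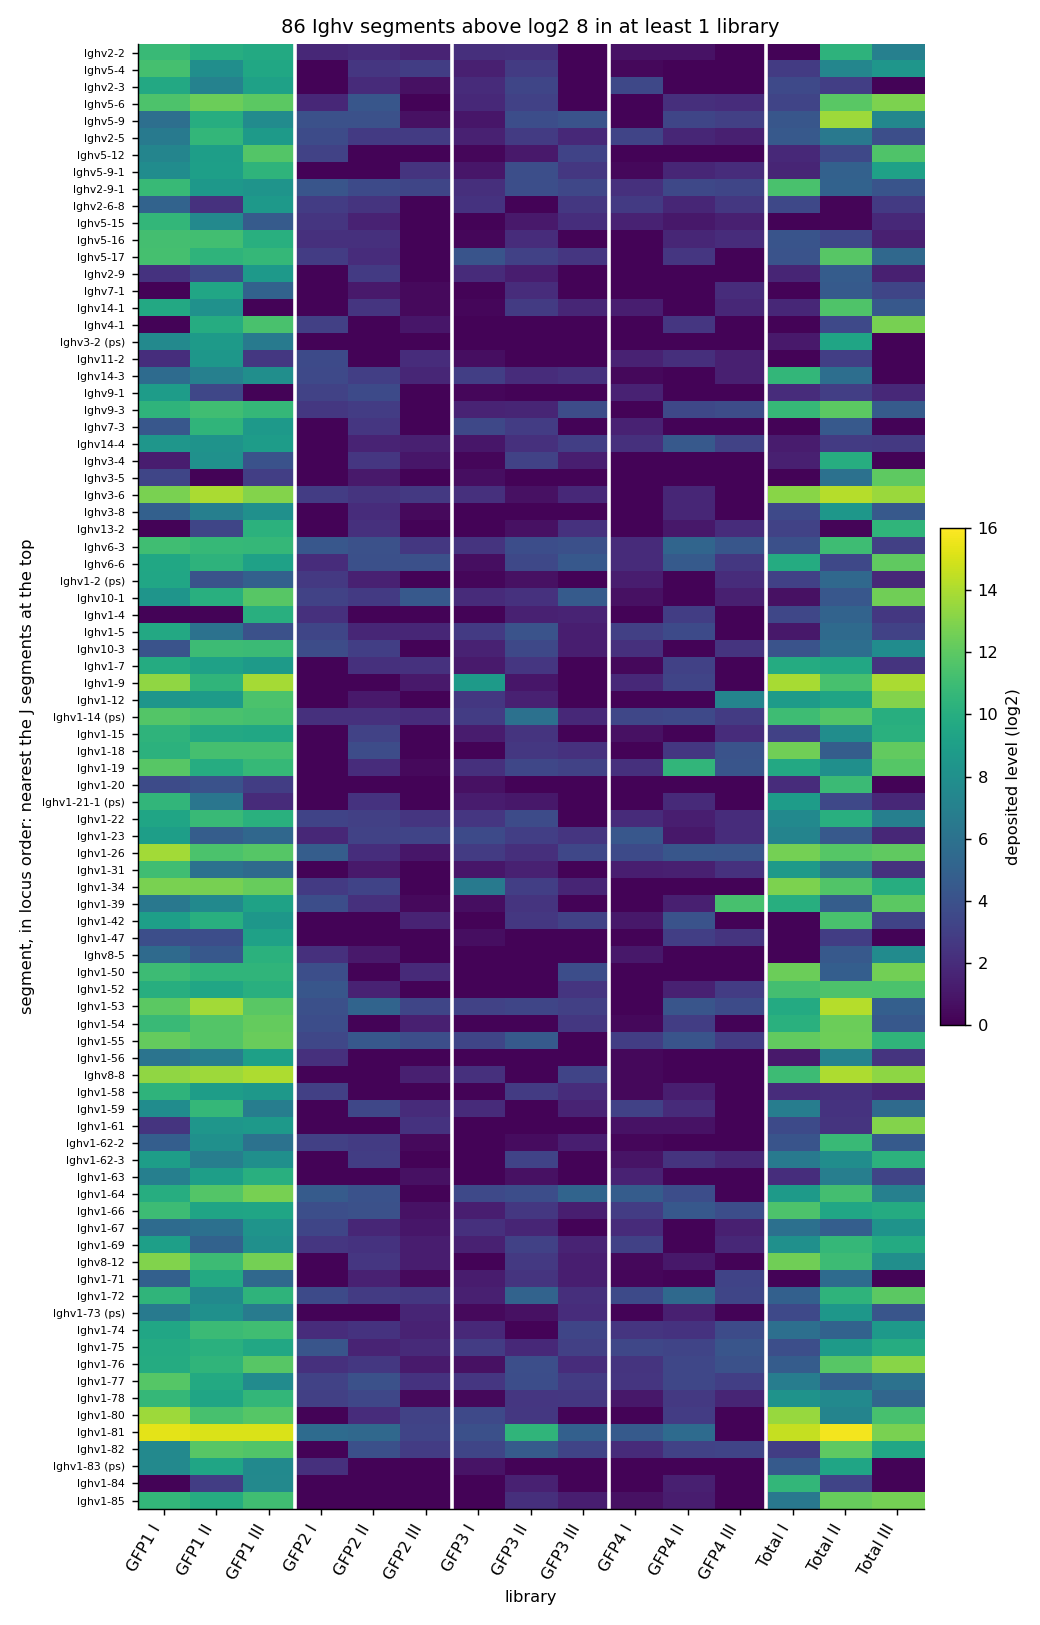
Log2 levels, as colour, of the 86 segments above 8 in at least 1 library (down, in locus order with the segments nearest the J segments at the top; ps marks a pseudogene) in 15 libraries (across). The GFP1 and Total columns are bright along the whole locus, with Ighv1-81 among the brightest, and single bright cells stand in GFP3 I, GFP3 II, GFP4 II and GFP4 III.

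Within the 3 bins that were low, 4 of 9 libraries held a single segment above 8, and each time 1 or more kappa segments were above 8 in the same library. In GFP3 I the segment was Ighv1-9 at 8.74, with Igkv19-93 at 10.08. In GFP3 II it was Ighv1-81 at 10.45, with Igkv1-117 at 11.67. The next Ighv segments in these libraries were Ighv1-34 at 6.59 and Ighv1-14 at 5.98. In GFP4 II the segment was Ighv1-19 at 10.55, with Igkv6-23 at 11.63. In GFP4 III it was Ighv1-39 at 11.32, with Igkv1-117 at 11.53 and Igkv1-110 at 10.62. A further segment, Ighv1-12, stood at 7.23 in GFP4 III, and the next in GFP4 II was Ighv1-81 at 5.59. These single segments held 52.8%, 71.1%, 72.6% and 83.3% of the summed linear Ighv level of GFP3 I, GFP3 II, GFP4 II and GFP4 III. The other 5 libraries (GFP2 I, II and III, GFP3 III and GFP4 I) had no Ighv or Igkv segment above 8, and their highest Ighv segments lay between 4.49 and 5.60.

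The constant genes split the 4 libraries into pairs. Igha, which encodes the constant region of IgA, stood at 12.42 in GFP3 II and 13.22 in GFP4 III, and between 1.34 and 4.91 in the other 7 libraries of these bins. Ighm, the constant region of IgM, stood at 12.14 in GFP3 I and 12.64 in GFP4 II, the highest of these 9 libraries, and between 9.68 and 11.24 in the other 7. Jchain, which joins secreted IgM and IgA into polymers, was at 8.50, 10.06, 8.44 and 11.67 in GFP3 I, GFP3 II, GFP4 II and GFP4 III. It lay between 3.51 and 5.95 in the other 5. The same 4 libraries thus had a single heavy chain segment, 1 or 2 kappa segments and the highest Jchain levels of the 9, and the pairs differed in which constant gene was high. Both libraries with high Igha also shared Igkv1-117, a segment not particular to them. It was the highest Igkv segment of GFP1 II at 15.82 and Total II at 16.04, and the second of GFP1 I at 15.57. It was also second, at low levels, in GFP3 III (5.73) and GFP4 I (4.89), where Igha was low. The 4 libraries with an Ighv segment above 8 were picked out by the segment values themselves, so no test is given.

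**Figure D3:**
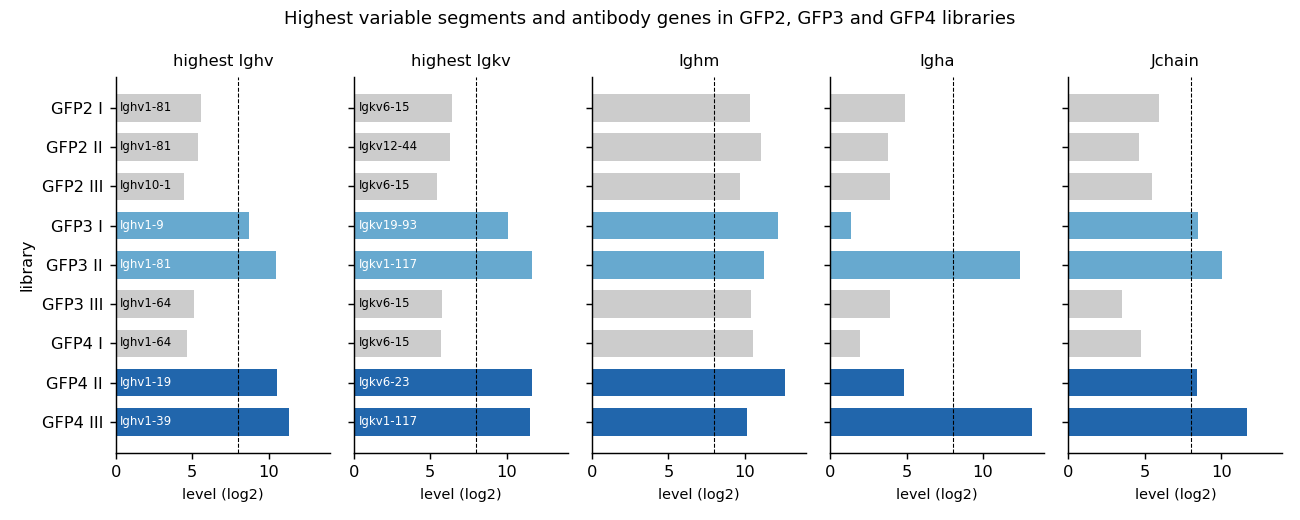
Log2 levels (horizontal axes) of the highest Ighv segment, the highest Igkv segment, Ighm, Igha and Jchain in 9 libraries, those of GFP2, GFP3 and GFP4 (down), with segment names inside the bars, libraries that hold an Ighv segment above 8 in colour and a dashed line at 8. The 4 coloured libraries have Jchain between 8.44 and 11.67, and GFP3 II and GFP4 III have Igha above 12.

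The call of the segments that stood alone in GFP4 turned on the library that held them. Ighv1-19 had log2 levels of 11.82, 9.90 and 10.71 in GFP1 and of 2.20, 10.55 and 4.20 in GFP4, so the groups overlapped, and the log2 difference was 5.16 ± 1.81 (limma adjusted p = 0.0772). Without GFP4 II the adjusted p was 2.95e-04. Ighv1-39 had 6.39, 7.60 and 9.19 in GFP1 and 0.14, 1.43 and 11.32 in GFP4, with a log2 difference of 3.43 ± 2.74 (adjusted p = 0.516). Without GFP4 III the adjusted p was 0.0287. In GFP2 against GFP3 limma called 0 of 155 segments, against 0.0% of all genes called higher and 0.0% called lower. There 1 of the 155 segments had an unadjusted limma p below 0.05, as had 1569 of all 27994 genes tested. In GFP3 against GFP4 limma called 0 of 155, against 0.0429% of all genes called higher and 0.0143% called lower. There 2 of the 155 segments had an unadjusted limma p below 0.05, as had 1641 of all 27994 genes tested. The count of called segments was also 0 in both comparisons under each alternative run with limma, the only tool used.

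GFP1 held a wider set of segments than Total. In GFP1 against Total, 14 of 155 segments were higher and 1 was lower (limma, adjusted over all genes), against 0.318% of all genes called higher and 1.41% called lower. The median log2 difference, GFP1 minus Total, was 1.23 over the tested segments and 0.00 over all genes tested. In 23 segments all 3 GFP1 libraries lay above all 3 Total libraries and in 3 all lay below, against 6.43% and 8.66% of all genes. Ighv5-16, of family 5, had log2 levels of 11.20, 11.18 and 10.09 in GFP1 and of 4.17, 3.40 and 1.42 in Total. Its log2 difference was 7.83 ± 0.81 (adjusted p = 5.47e-05), with no overlap. Ighv1-58 had 10.41, 8.91 and 8.56 in GFP1 and 2.02, 2.24 and 1.71 in Total, a log2 difference of 7.30 ± 0.85 (adjusted p = 1.61e-04). Ighv14-4 had 8.39, 8.19 and 8.86 in GFP1 and 1.22, 2.76 and 2.68 in Total, a log2 difference of 6.26 ± 0.71 (adjusted p = 1.22e-04). These 3 were above 8 in every GFP1 library, Ighv14-4 only just, and under 5 in every Total library. Ighv8-2 differed by 5.45 ± 0.88 on the log2 scale (adjusted p = 0.00239) at a lower level, between 5.58 and 6.85 in GFP1 and between 0.14 and 1.87 in Total. Ighv5-15 had 10.60, 7.53 and 4.57 in GFP1 and 0.14, 0.19 and 1.84 in Total, and its log2 difference of 6.84 ± 1.11 (adjusted p = 0.00256) was not called in a fit of these 2 groups alone (adjusted p = 0.212).

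The other 9 segments called higher were Ighv9-2, Ighv2-3, Ighv5-12-4, Ighv1-63, Ighv1-77, Ighv1-74, Ighv2-5, Ighv9-4 and the pseudogene Ighv1-17, with log2 differences between 3.23 and 6.42. They were spread over families 1, 2, 5 and 9. Ighv1-11 was the segment called lower, with 1.31, 2.97 and 1.48 in GFP1 and 5.84, 4.15 and 3.90 in Total, all of them low levels. Its log2 difference of -2.71 ± 0.67 (adjusted p = 0.0445) lost its call in 8 of 13 alternatives, with adjusted p between 0.0307 and 0.221 over all 13. The count of 14 was 6 in a fit of the 2 groups alone, 9 with a pseudocount of 0.1 and 22 without Total II. In GFP4 against Total, 0 of 155 segments were higher and 48 were lower, against 4.7% and 5.29% of all genes, with a median log2 difference of -2.80 over the segments and 0.07 over all genes tested. The count of 48 was 27 in a fit of GFP4 and Total alone.

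Family 1 supplied most of the Ighv level in GFP1 and Total. Its share of the summed linear Ighv level was 73.0%, 63.6% and 65.5% in GFP1 libraries I, II and III and 80.5%, 64.7% and 63.1% in Total, with means of 67.4% ± 4.97 in GFP1 and 69.4% ± 9.6 in Total (SD, n = 3 each). The groups overlapped. Family 1 has 91 of the 178 members, and 35, 35 and 36 of its segments lay above 8 in GFP1, against 23, 25 and 25 in Total. Family 8 held 11.0% ± 2.22 in GFP1 and 7.45% ± 1.58 in Total, with libraries overlapping between 9.17% and 9.27%. Family 3, mostly Ighv3-6, held 6.3% ± 3.56 in GFP1 and 9.5% ± 1.89 in Total. Family 5, which lies nearest the J segments together with family 2, was steady in GFP1, at 6.71%, 7.07% and 6.81%, and uneven in Total, at 0.0873%, 10.2% and 7.36%. No family 5 segment lay above 8 in Total I, against 5 in GFP1 I. Segments above 8 came from 9, 12 and 12 families in GFP1 and from 7, 8 and 8 in Total, without overlap. Families 7 and 11 had segments above 8 in GFP1 and none in Total. Families 12, 15 and 16, with 3, 1 and 1 members, had none above 8 in any library.

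**Figure D4:**
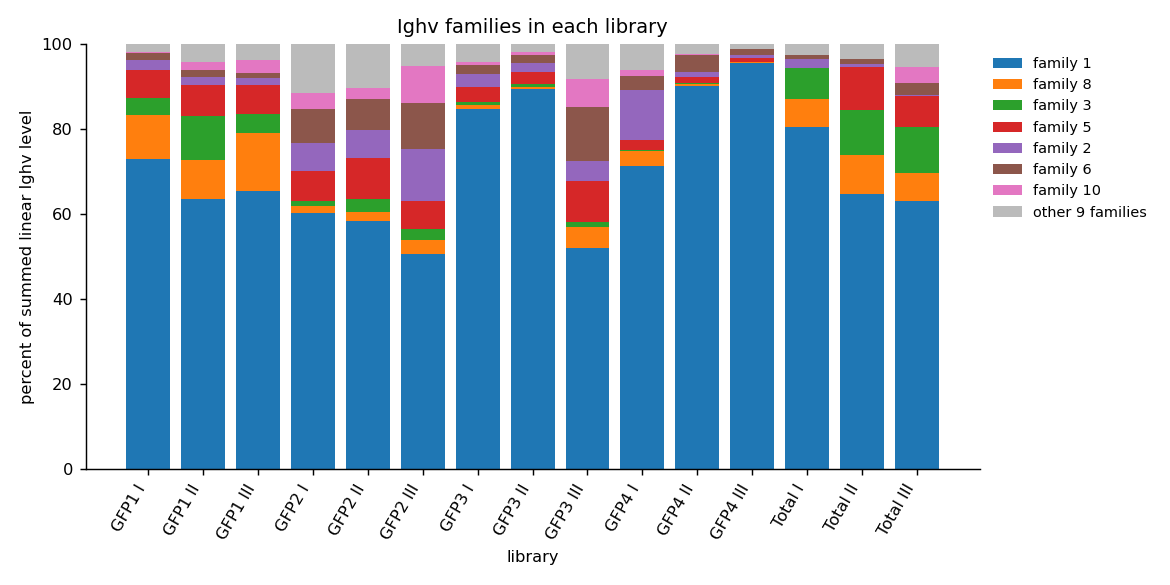
Share of each family in the summed linear Ighv level (vertical axis, percent) of each library (horizontal axis), as stacked bars. Family 1 holds between 63.1% and 80.5% in the GFP1 and Total libraries, and up to 95.6% in GFP4 III, where the total level is low and a single segment carries most of it.

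Segments were used along the whole locus. The 176 positioned segments were divided by rank into 59 nearest the J segments, 58 in the middle and 59 on the far side. In GFP1 libraries I, II and III, 13, 19 and 18 segments of the J-side part lay above 8, against 4, 10 and 7 in Total. In the far part, 21, 26 and 26 lay above 8 in GFP1, against 14, 18 and 17 in Total, and in the middle part 19, 15 and 18 in GFP1, against 12, 10 and 12 in Total. In each part every GFP1 library had more than every Total library. The far part, which holds Ighv1-81 and Ighv8-8, carried between 56.4% and 58.9% of the summed linear Ighv level in GFP1 and between 41.2% and 63.5% in Total.

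Functional segments and pseudogenes separated. In the GFP1 libraries the median log2 level was 7.23, 7.92 and 8.49 for functional segments and 1.31, 1.64 and 0.14 for pseudogenes. In Total it was 3.38, 4.80 and 4.06 for functional segments and 0.73, 1.97 and 1.42 for pseudogenes. In GFP1 against GFP4, 81 of 109 functional segments tested and 16 of 44 pseudogenes tested were higher. Over the 15 libraries, 86 segments passed 8 at least once, 80 of them functional and 6 pseudogenes, and 92 never did, among them 33 functional segments. The pseudogene with the widest use was Ighv1-14, at 11.71, 11.43 and 11.28 in GFP1 and 11.04, 11.70 and 10 in Total. Its nearest relative, the pseudogene Ighv1-83, was 90.8% identical and lay at 7.56, 9.41 and 7.57 in GFP1 and 4.51, 9.40 and 0.14 in Total. The other pseudogenes above 8 were Ighv3-2, Ighv1-2, Ighv1-21-1 and Ighv1-73. The assignment of their reads was not tested here.

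Segments were shared between GFP1 and Total libraries, and on average more so within a replicate number. Of the 62 segments above 8 in any Total library, 12 were above 8 in all 3, while of the 82 above 8 in any GFP1 library, 39 were. GFP1 I and Total I shared 27 segments, which is 50.9% of the GFP1 list and 90.0% of the Total list. GFP1 II and Total II shared 34 (56.7% and 89.5%), and GFP1 III and Total III shared 34 (54.8% and 94.4%). Between libraries of different number, the shared segments were between 75.0% and 86.7% of the Total list, so by this share each same-number pair lay above all 6 different-number pairs. They were between 40.0% and 54.7% of the GFP1 list, which overlaps the same-number pairs: GFP1 I shared 29 segments with Total II and 27 with Total III, against 27 with Total I. As a share of the segments above 8 in either library, the same-number pairs had 48.2%, 53.1% and 53.1% and the different-number pairs between 36.4% and 46.8%. The mean difference was 9.8 percentage points, and at thresholds of 6, 7, 9 and 10 it was between 4.79 and 9.03 points, with overlapping ranges. Members are not replicates, and no test was made over them. Libraries of the same group shared between 56.9% and 64.9% in GFP1 and between 32.1% and 37.5% in Total.

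The levels followed the same pattern. When each segment's level was expressed as a deviation from its group mean, GFP1 and Total libraries of the same number correlated over the 86 segments with r = 0.26, 0.28 and 0.34 for I, II and III, and libraries of different number with r between -0.25 and 0.02. These correlations describe segments that share a library, an age and a chase length. The deviations of a segment cancel out within its group, so positive values at the same number pull those at different numbers down. The gap between them is therefore partly built in. A set of 12 segments passed 8 in a single GFP1 library and a single Total library, and in 10 of the 12 the number was the same. Ighv13-2, of a family with 2 members, stood at 0.14, 3.33 and 10.28 in GFP1 and 3.18, 0.19 and 10.47 in Total, high in library III of both groups only. Ighv5-9 stood at 5.87, 9.97 and 7.73 in GFP1 and 4.29, 13.64 and 7.38 in Total, with library II highest in both. Ighv1-21-1, an annotated pseudogene, stood at 10.53, 6.30 and 1.95 in GFP1 and 8.87, 3.46 and 1.75 in Total, with library I highest in both. Others of number I were Ighv1-31, of number II Ighv3-2, Ighv3-4, Ighv1-62-2 (identical to Ighv1-71 over the V exon), Ighv1-73 and Ighv1-83, and of number III Ighv1-67. The exceptions were Ighv3-8, above 8 in GFP1 III and Total II, and Ighv1-62-3, above 8 in GFP1 I and Total III. Of the 32 segments above 8 in a single Total library, 21 had their highest GFP1 level in the library of the same number (4 of 6 for I, 9 of 14 for II and 8 of 12 for III).

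**Figure D5:**
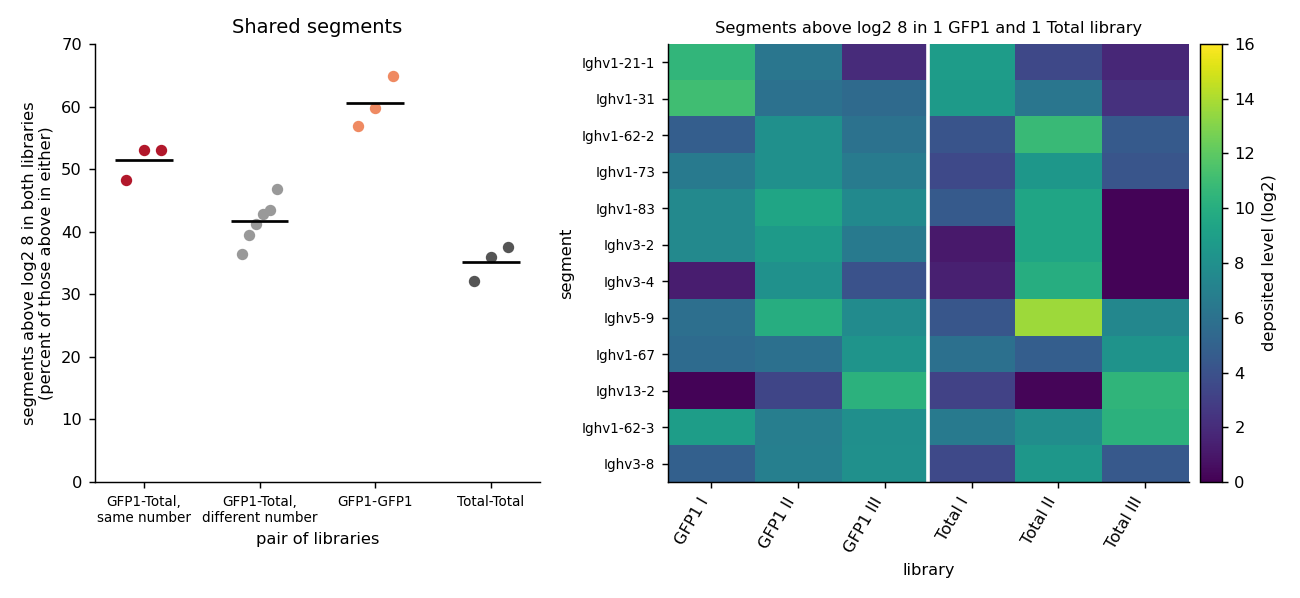
Left, segments above log2 8 in both libraries of a pair as a percent of those above 8 in either (vertical axis), with 1 point per pair and a line at the mean, for GFP1 with Total libraries of the same and of different replicate number and for pairs within GFP1 and within Total. Right, log2 levels, as colour, of the 12 segments above 8 in a single GFP1 and a single Total library, with the 10 of the same number above the 2 of different number.

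The segments alone in GFP3 and GFP4 were also present in GFP1 and Total libraries of their number. Ighv1-39, at 11.32 in GFP4 III, stood at 9.19 in GFP1 III and 11.95 in Total III, the highest library of each group. Ighv1-12, which was below 8 at 7.23 in GFP4 III, stood at 11.46 in GFP1 III and 13.06 in Total III, again the highest of each group. Ighv1-9, at 8.74 in GFP3 I, stood at 13.32 in GFP1 I and 13.88 in Total I, both below library III of their group. Ighv1-81, at 10.45 in GFP3 II, stood at 15.12 in GFP1 II and 15.69 in Total II, and it was above 12 in all 6 GFP1 and Total libraries. Ighv1-19, at 10.55 in GFP4 II, stood at 9.90 in GFP1 II and 7.98 in Total II, the lowest library of each group. The number was thus matched in some of these segments and not in others, and no test was made.

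The heavy chain constant genes moved with the V segments. In GFP1 against GFP4, 7 of the 8 constant genes were higher and 0 lower, where 9.27% of all genes were called higher and 10.3% lower (limma, adjusted over all genes). In GFP1 against Total 0 of 8 were called, where 0.318% of all genes were called higher and 1.41% lower, so that count is near the background. Ighg1 differed there by 5.09 ± 2.24 on the log2 scale (adjusted p = 0.405). Ighg2c, of IgG2c, had log2 levels of 17.29, 17.29 and 15.94 in GFP1 and 1.54, 0.14 and 2.22 in GFP4, a log2 difference of 15.54 ± 0.69 (adjusted p = 6.66e-08). Ighg2b, of IgG2b, had 15.82, 17.54 and 16.76 in GFP1 and 3.19, 4.06 and 6.51 in GFP4, a log2 difference of 12.12 ± 1.27 (adjusted p = 4.78e-05). Igha had 17.94, 17.94 and 17.75 in GFP1 and 1.96, 4.81 and 13.22 in GFP4, where GFP4 III stood far above the others. Its log2 difference of 11.21 ± 3.01 (adjusted p = 0.0234) was not called when GFP1 I, GFP1 II, GFP1 III, GFP4 I or GFP4 II was left out (adjusted p between 0.0633 and 0.0925), nor in a fit of GFP1 and GFP4 alone (adjusted p = 0.105). Ighg3 rose by 8.95 ± 1.87 on the log2 scale (adjusted p = 0.00576), Ighm by 5.88 ± 1.04 (adjusted p = 0.00205) and Ighd, the constant region of IgD, by 2.48 ± 0.57 (adjusted p = 0.00867). Ighg1 varied within GFP1, at 4.51, 13.74 and 12.88, against 0.35, 2.16 and 2.42 in GFP4. Its log2 difference was 8.74 ± 2.24 (adjusted p = 0.018), with adjusted p of 0.0639 without GFP1 II, 0.0696 without GFP1 III, 0.0668 without GFP4 I and 0.145 in a fit of GFP1 and GFP4 alone. Ighe, of IgE, was low throughout, and its difference of 2.61 ± 1.26 did not pass the test (adjusted p = 0.192).

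Markers of antibody-secreting cells moved with the segments, and their part in the result was not tested. Of 19 plasma cell markers 16 were higher in GFP1 than in GFP4 and 0 lower, against 9.27% of all genes called higher and 10.3% lower, among them Edem1 and Mzb1, which serve folding and disposal of secretory proteins, and Sdc1 (CD138). Mzb1 stood at 11.49, 11.60 and 11.50 in GFP1 and 5.79, 6.51 and 6.62 in GFP4, a log2 difference of 5.23 ± 0.36 (limma adjusted p = 4.88e-08). The summed linear level of these 19 was between 0.498% and 0.613% of the library in GFP1, between 0.0795% and 0.0987% over GFP2, GFP3 and GFP4, and between 0.326% and 0.686% in Total. Of 14 B cell markers 8 were higher and 0 lower, against the same shares of all genes, with Cd79a, a signalling subunit of the B cell receptor, at a log2 difference of 2.58 ± 0.36 (adjusted p = 2.89e-04). Their summed level was between 0.0281% and 0.0473% in GFP1, between 0.011% and 0.021% in GFP2, GFP3 and GFP4, and between 0.0255% and 0.0513% in Total. The count depended on the fit. With replicate number as a block, Bank1, Cd22, Ebf1 and Fcer2a were also called higher (limma adjusted p between 8.43e-06 and 0.0406). Pax5, among the 8, lost its call in 5 of the 13 alternatives. No marker of either list was at the lowest value in all libraries of a group.

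Of 14 genes of B cell progenitors and V(D)J recombination, 3 were higher in GFP1 than in GFP4 (Cd79a, Vpreb3 and Pax5) and 1 lower (Xrcc4, a factor that joins the broken ends), against 9.27% of all genes called higher and 10.3% lower. The 1 lower is near the background, and Vpreb3 and Pax5 lost their call in 3 and 5 of the 13 alternatives. Cd79a and Pax5 are also counted in the B cell list, and Pax5 again among the regulators of the locus, so these counts are not independent. Rag1, which cuts the DNA together with Rag2, had log2 levels of 5.30, 5.78 and 5.24 in GFP1 and 5.68, 4.86 and 4.33 in GFP4. Rag2 had 5.11, 5.59 and 4.46 in GFP1 and 6.41, 4.73 and 4.40 in GFP4, and Dntt, which adds bases at the joins, had 5.30, 6.48 and 5.01 in GFP1 and 6.44, 4.66 and 4.17 in GFP4. The groups overlapped for all 3, and none passed the test. Of 10 regulators of the locus 4 were higher and 1 lower, the 1 lower near the background, with Pou2af1, a coactivator of octamer-dependent immunoglobulin promoters that is also in the plasma cell list, at a log2 difference of 2.90 ± 0.37 (adjusted p = 4.16e-05). Of 10 T cell markers 3 were higher and 0 lower, against the same shares of all genes, at log2 differences between 1.51 and 1.83, and each lost its call in 3 or more of the 13 alternatives. In GFP1 against GFP4, 8 of 10 HSC markers were lower and 0 higher, against 10.3% of all genes called lower, among them Hlf, at 12.85, 12.90 and 12.89 in GFP1 and 14.63, 14.83 and 14.66 in GFP4. Meis1, also among the 8, lost its call in 7 of the 13 alternatives.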

How the data were processed

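RNA from sorted HSCs was amplified with SMART-Seq v4 and tagmented with Nextera XT, per the labels' protocols. The submitters' processing notes name kallisto 0.43.0 and GRCm38. The authors deposited log2 values, 1 row per gene, which the values themselves show to be quantile normalized. The unit before the logarithm, the offset and the depth are not given in any source used here. Quantile normalization gives every library the same total and caps the most abundant genes, so that Igkc stood at 19.12 in all GFP1 and Total libraries.

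The deposited log2 values entered limma 3.58.1 in R 4.3.3 (trend and robust moderation, 1 mean per group over all 15 libraries, residual df 10). Genes were tested where 3 or more libraries had a linear value of 1 or more, 27994 in all and 155 of the 178 segments. P-values were adjusted by Benjamini-Hochberg over all genes within each of 6 comparisons at 0.05, and the model was tested on simulated data. Positions, biotypes and sequences came from the GENCODE annotation of GRCm38, and identities were computed with edlib 1.3.9. The table holds no D or J segments under their own symbols, and these were not analysed here.

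The segments and the gene lists were chosen with earlier results of these data known. Segments named were the 5 highest of each GFP1 and Total library, the 10 largest rises in GFP1 against GFP4 without overlap, up to 5 each way by p in GFP1 against Total, all above 8 in GFP2, GFP3 or GFP4, and up to 3 per replicate number above 8 in its GFP1 and Total libraries alone. All constant genes and up to 3 genes each way per list were named beside them, and other names were chosen after seeing their values. The threshold of 8 was given with the description of the segments.

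Replicate numbers were checked for pairing by correlating deviations from the group means over all genes tested. GFP1 and Total libraries of the same number correlated at 0.24, 0.16 and 0.13, so by this check they were taken as paired. The replicate block kept all 15 segment calls of that comparison, among 18. In the other 5 comparisons not every pair passed 0.1. Age and chase length match by number in all 5 groups, however, so a low correlation does not show that libraries are unpaired. The main fits left number out.

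Alternatives were quantile normalization repeated without 351 immunoglobulin genes and without the T cell receptor genes, median-of-ratios rescaling, no filter, a pseudocount of 0.1, array weights, the replicate block, the compared groups alone, each library left out, other thresholds, functional segments alone, the 20 highest segments and rank correlation.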

Additional observations from a re-analysis of the deposited data

How the results depend on the processing

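Depth is unknown, so values near 0.14 cannot be told from absence, and reads of close relatives may have been split. The counts of segments higher in GFP1 against GFP4 (97) and GFP1 against GFP2 (87) stayed within 1.5 times under all alternatives. Leaving out single libraries gave 83 to 95 in GFP1 against GFP4 and 60 to 75 in GFP1 against GFP2. With the replicate block they were 100 and 89, and GFP4 against Total had 51 lower. Same-numbered libraries share age and chase length in every group, so number could serve as a block in all 6 comparisons. The main fits left it out. In GFP1 against Total the block gave 17 higher and 1 lower. There 6 of 6 libraries correlated best with their own number, against 2 to 5 of 6 in the other comparisons. Deviations cancel out within a group, so a positive value at the same number pulls the others down and these counts are not independent. Whether same-numbered libraries shared animals is not labelled.

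In GFP1 against Total, the 14 higher became 9 with a pseudocount of 0.1, 6 with the compared groups alone, and 11 to 22 with a library left out. The 1 lower became 0 with no filter, a pseudocount of 0.1 or array weights, and 0 to 2 with a library left out. In GFP4 against Total, the 48 lower became 27 with the compared groups alone and 32 to 55 with a library left out. The median number of segments per GFP1 library was 60 above 8 and 34 above 10, and per GFP3 library 1 above 8 and 0 above 9 or 10. The same-number excess in overlap of 9.8 points was 4.79 at a threshold of 6 and 6.37 at 7, and 0.0404 as a difference in Spearman correlation. The Spearman ranges overlapped, 0.669 to 0.76 at the same number and 0.64 to 0.729 at different numbers. GFP1 I correlated better with Total II (0.72) than with Total I (0.67), and GFP1 III with Total II (0.73) than with Total III (0.72). Among the 20 highest segments, the overlap was 37.9% to 42.9% at the same number and 17.6% to 42.9% at different numbers. Family 1 held 67.4% of the level in GFP1 and 60.8% of the segments above 8. The cause of these shifts was not tested. No result changed direction.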
